A study of Mus musculus with 2 samples.

Results

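The clustered protocadherins are a family of cell adhesion genes that lie side by side on mouse chromosome 18. Here they were taken as all known genes of the expression table whose symbols name a Pcdhg, Pcdhb or Pcdha isoform, a choice made by name and not by level. This gave 58 of the 23257 known genes: 22 of the gamma cluster, 22 of the beta cluster and 14 of the alpha cluster. Their RNA was measured by RNA-Seq in neural stem cells (NSCs) of the embryonic cerebral cortex of CD-1 mice, which were kept in monolayer culture in medium with 20 ng/ml each of EGF and FGF. The series holds 1 condition with 2 libraries, NSC replicates 1 and 2, made from poly(A)+ RNA, with no other treatment, genotype or time to set against it. The study calls its replicates biological, but neither it nor the labels name separate cultures, and the spread between the libraries may be technical. Levels are FPKM, the fragments assigned to a gene divided by the length of its transcript and by the library's mapped fragments. The lowest value of the tables is 0.1, and a gene given that value is called listed at 0.1. With 2 libraries of 1 condition no test between groups was possible, and each result is a description with its value in each library.

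Each clustered protocadherin is a transmembrane protein with cadherin repeats that binds the same isoform on a neighbouring cell. In the alpha and gamma clusters every gene has a promoter and a large variable exon of its own, which encodes the extracellular part, the membrane span and the start of the cytoplasmic tail. That exon is spliced to constant exons at the end of the cluster, which all genes of the cluster share. The beta genes consist of a single exon and have no constant part. In neurons, each cell uses a small set of the promoters, chosen largely at random through loops that CTCF and cohesin form with distant enhancers, and the isoforms mark the cell's own branches for self-avoidance. The 5 C-type genes, Pcdhac1, Pcdhac2, Pcdhgc3, Pcdhgc4 and Pcdhgc5, resemble one another more than their cluster neighbours and are not chosen in this way. NSCs are dividing progenitors that can give rise to neurons and glia. In RNA of a whole culture, fewer cells that express an isoform and less RNA of it per cell cannot be told apart.

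On the GRCm38 assembly, from which mm10 is made, the gamma genes span chromosome 18 from 37661775 to 37841873 (180 kb), the beta genes from 37264998 to 37521419 (256 kb) and the alpha genes from 36930285 to 37188897 (259 kb). All are read from the plus strand, and the alpha cluster comes first on the chromosome. In GENCODE M21 every gamma transcript has 4 exons and 4615 to 5080 bases, of which 2116 to 2119 are exon bases shared with other gamma genes. Every beta transcript is 1 exon of 2588 to 8695 bases, and only Pcdhb21 and Pcdhb22 overlap, by 455 bases. Every alpha transcript has 4 exons and 5206 to 5888 bases, of which 2860 are shared. A gamma gene thus owned a median of 55.1% of its transcript, a beta gene 100% and an alpha gene 46.5%. Reads from the shared exons fit all genes of the cluster, and Cufflinks divides them by its own estimate, so a single FPKM of a gamma or alpha gene rests on the reads of its variable exon and on that division.

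**Figure D1:**
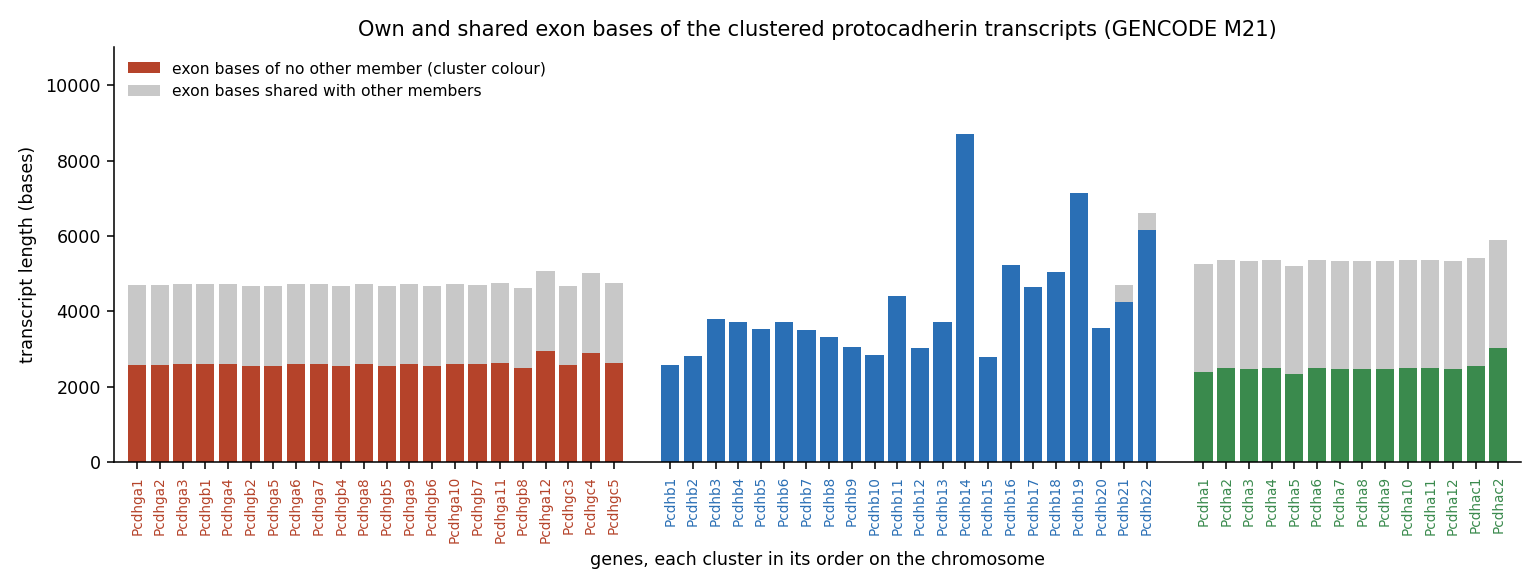
Transcript length in bases of each clustered protocadherin in GENCODE M21, split into exon bases of that gene alone (colour of the cluster) and exon bases shared with other members (grey), with the genes of each cluster in chromosomal order. All 22 gamma bars and all 14 alpha bars carry a shared part, of at most 2119 and 2860 bases, while among the beta bars only Pcdhb21 and Pcdhb22 do.

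Near-identical sequence adds to this. The share of the 100-base windows of a transcript that occur in no other member had a median of 55.9% among gamma genes, with the lowest at 36.0% for Pcdhga4. The median was 99.8% among beta genes and 44.9% among alpha genes, whose lowest was 41.6% for Pcdha11. These medians lie close to the share of exon bases a gene owns, so in most members the variable exons can be told apart by windows of this length. The libraries do not mark strand, and an exon of 8 of 22 gamma genes, 1 of 22 beta genes and 4 of 14 alpha genes overlaps a gene on the opposite strand. In the overlapping stretches, reads of a member and of its antisense partner cannot be told apart. The share of windows found in no other GENCODE M21 gene on either strand was lowest for Pcdha4 (1.80%), Pcdhga10 (2.14%, antisense Gm26672) and Pcdha11 (2.85%, antisense Gm10545). It was 25.1% for Pcdhgc3 (BC037039), 37.7% for Pcdhb12 (Gm37446) and 38.7% for Pcdha12 (Gm10545). At Pcdha4, antisense Gm38225 spans only 36952651 to 36953043. Gm42416, a protein-coding gene on the same strand as the members, spans 36952741 to 37840200. Gm37013 and Gm37388, on that strand too, also run from the alpha into the gamma cluster. Pcdha7, with no opposite-strand gene over its exons, had 39.3%, against 43.9% found in no other member.

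All but 2 members had a value above 0.1 in both libraries, and most of these values were low. Of the 58 members 31 (53.4%) were above FPKM 1 in both libraries, beside 47.7% of all known genes, and 3 more were above it in 1 library only. Only Pcdha1 and Pcdhb1 were listed at 0.1 in both libraries (3.45% of members, beside 40.3% of known genes). At the other end, 2 members, Pcdhgc3 and Pcdhac2, were above FPKM 5 in both libraries (3.45%, beside 35.0% of known genes). The members therefore lay in a narrow band: 55 of 58 (94.8%) had a mean above 0.1 and under FPKM 10, beside 34.6% of known genes. The median over members was 1.15, with quartiles of 0.667 and 2.29, and the median over known genes was 0.695, with quartiles of 0.1 and 10.04. Among the 13433 known genes above 0.1 in both libraries the median was 7.86.

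Gamma and beta genes were alike in these counts and alpha genes lower. Of 22 gamma genes 14 (63.6%) were above FPKM 1 in both libraries, of 22 beta genes 14 (63.6%) and of 14 alpha genes 3 (21.4%). The median FPKM was 1.48 and 1.38 in replicates 1 and 2 among gamma genes, 1.35 and 1.41 among beta genes, and 0.558 and 0.562 among alpha genes. Summed FPKM differed far more than the medians. It was 204 and 199 for gamma, 38.9 and 39.6 for beta, and 15.9 and 15.8 for alpha, and 1 gamma gene, Pcdhgc3, made up most of the first of these sums.

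**Figure D2:**
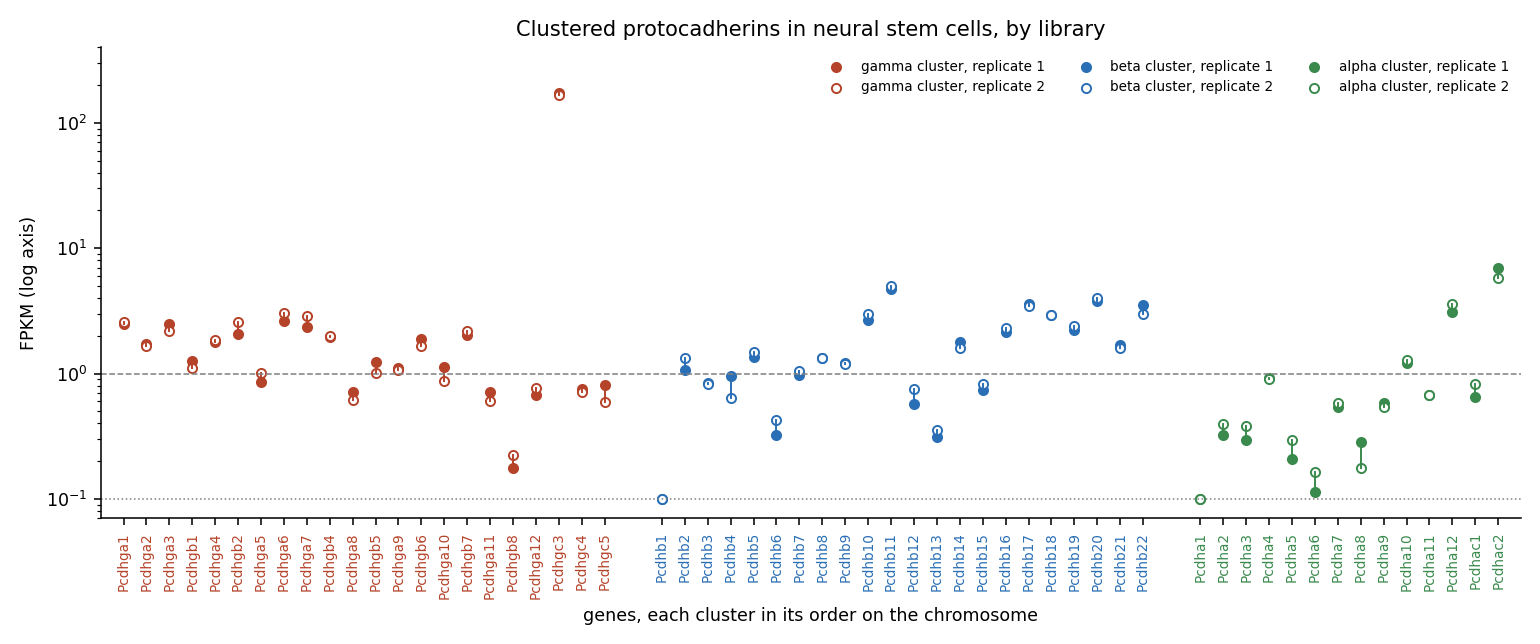
FPKM (log axis) of the 58 clustered protocadherins in NSC replicate 1 (filled) and replicate 2 (open), in chromosomal order within the gamma, beta and alpha clusters, with a dashed line at FPKM 1 and a dotted line at 0.1, the lowest value of the tables. Pcdhgc3, at 173 and 168, stands apart from every other member, the next being Pcdhac2 at 6.92 and 5.83.

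Pcdhgc3 is a C-type gene of the gamma cluster (chromosome 18 from 37806410 to 37841873) and is known to be expressed in many tissues besides the brain. It had an FPKM of 173 in replicate 1 and 168 in replicate 2, a mean of 170 ± 3.95 (SD, n = 2 libraries), above 98.6% of known genes. Both libraries placed it far over every other member, 25.03-fold and 28.75-fold over Pcdhac2, the next one. It alone was 2.02 and 1.94 times the sum of the other 57 members. In the gamma cluster it made up 84.9% and 84.3% of the summed FPKM, and among all members 66.9% and 65.9%. The share of its windows found in no other gene of GENCODE M21 on either strand was 25.1%, against 55.9% found in no other member, and BC037039 is annotated over its exons on the opposite strand. That gene was not analysed here, and the part of the Pcdhgc3 value that its reads may make up was not tested.

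The neighbours of Pcdhgc3 did not share its level. Pcdhgc4, whose isoform is needed for the survival of cortical interneurons, had 0.747 and 0.713, so Pcdhgc3 was 232 and 235 times as high. Pcdhgc5, a C-type gene known from the mature brain, had 0.816 and 0.591. Their library values overlap, and neither gene was above FPKM 1 in either library. The 3 genes share their constant exons, so the gap between them rests on the reads of the variable exons and on how the shared reads were divided.

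The C-type genes of the alpha cluster differed in the same manner. Pcdhac2, the last variable exon of the cluster, had 6.92 and 5.83, a mean of 6.37 ± 0.771, and was the highest alpha gene in both libraries. Pcdhac1, the gene before it, had 0.649 and 0.829. The ratio of Pcdhac2 over Pcdhac1 was 10.7 in replicate 1 and 7.03 in replicate 2. Among the 5 C-type genes 2 were thus above FPKM 1, 1 in each cluster that has them, and the other 3 lay between 0.591 and 0.829 in every library, with no order among them that exceeds the spread.

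The gamma A and gamma B genes, 19 in all, lay within a narrow range. Their means ran from 0.201 for Pcdhgb8 to 2.83 for Pcdhga6, and 13 of 19 were above FPKM 1 in both libraries. By type, 7 of 12 gamma A genes and 6 of 7 gamma B genes were above it, with medians of 1.38 and 1.76. The highest, Pcdhga6, had 2.61 and 3.04, and the next, Pcdhga7, had 2.34 and 2.90. The values of these genes overlap, and those of Pcdhga1 (2.49 and 2.59) fall within the range of Pcdhga7. The lowest gamma gene, Pcdhgb8, had 0.176 and 0.225 and is typed as a polymorphic pseudogene in GENCODE M21. Pcdhga5 (0.856 and 1.02) and Pcdhga10 (1.12 and 0.877) lay on opposite sides of FPKM 1 in the 2 libraries. Pcdhga10 is the gamma gene with the smallest share of windows found in no other gene on either strand.

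Gamma A and B genes near the start of the cluster were higher than those toward its end. Of the first 10, from Pcdhga1 to Pcdhgb4, 9 were above FPKM 1 in both libraries, and their median was 2.15. Of the last 9, from Pcdhga8 to Pcdhga12, 4 were above it, with a median of 0.998. The exceptions were Pcdhga5 in the first set, and Pcdhgb5 (1.23 and 1.01), Pcdhga9 (1.10 and 1.07), Pcdhgb6 (1.88 and 1.65) and Pcdhgb7 (2.035 and 2.199) in the last. Across the 19 genes Spearman's rho of mean FPKM with chromosomal order was -0.59, and it was -0.47 across all 22, where Pcdhgc3 lies near the end. The genes share a library, constant exons and an annotation, and the point at which the cluster was divided was set after the values were seen, so these are descriptions without a test.

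The beta genes, which carry no constant exons, ran from 0.1 to 4.88. Pcdhb11 was the highest, with 4.73 and 5.04, and the third of all members. Pcdhb20 followed with 3.82 and 4.01, and Pcdhb17 had 3.60 and 3.47. In this order each of the 3 lay above the next in both libraries. Pcdhb22 (3.55 and 2.96) overlapped Pcdhb17, and the values of Pcdhb10 (2.67 and 2.98) overlapped those of Pcdhb22 and spanned those of Pcdhb18 (2.91 and 2.92). At the low end were Pcdhb1, listed at 0.1 in both libraries, Pcdhb13 (0.313 and 0.356) and Pcdhb6 (0.321 and 0.423). The values of Pcdhb6 and Pcdhb13 overlap.

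Along the beta cluster the level ran the other way from the gamma cluster. The place at which this cluster was divided, like that used for the alpha cluster, was also chosen after the values were seen. All 7 genes from Pcdhb16 to Pcdhb22 were above FPKM 1 in both libraries, with means from 1.64 to 3.92 and a median of 2.91. Of the 15 genes from Pcdhb1 to Pcdhb15, 7 were above it, and their median was 1.01, although Pcdhb11 is among them. Divided at Pcdhb10 instead, 10 of the last 13 genes were above it, with a median of 2.31, and 4 of the first 9, with a median of 1.01. Spearman's rho of mean FPKM with chromosomal order was 0.61 across the 22 genes. Transcript length in GENCODE M21 went with level as well, with a rho of 0.53. Many of the longer transcripts belong to the later part, although Pcdhb14 has the longest of all. The RefSeq spans of several beta genes are much shorter than these lengths. For Pcdhb14 the span runs from 37447657 to 37451094, against 8695 bases in GENCODE M21. The relation with RefSeq lengths was not tested. Length and place were not told apart here, and FPKM already divides by the length in the authors' annotation, which may differ. The corresponding rho with length was -0.25 across gamma genes and 0.45 across alpha genes, whose lengths differ little.

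The alternate alpha genes, Pcdha1 to Pcdha12, were the lowest group. None of the 9 genes from Pcdha1 to Pcdha9 was above FPKM 1 in either library, and their median was 0.336. Pcdha4 was the highest of them, with 0.916 and 0.910, but nearly all of its windows also occur in another gene. Pcdha6 (0.113 and 0.164) was the lowest above the limit of the table, and Pcdha1 was listed at 0.1 in both libraries. The 3 genes that follow on the chromosome included the 2 alternate alpha genes above FPKM 1.

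Pcdha12, the last alternate alpha gene, had 3.08 and 3.59, a mean of 3.34 ± 0.362. Pcdha10 had 1.21 and 1.28, and Pcdha11, between them on the chromosome, had 0.671 and 0.670. Both libraries gave the order Pcdha12, Pcdha10, Pcdha11 with gaps wider than the spread, although nearly all windows of Pcdha11 also occur in another gene. Together Pcdhac2 and Pcdha12 made up 63.0% and 59.8% of the summed FPKM of the alpha cluster. Pcdhac2 lay over Pcdha12 in both libraries, 2.24-fold and 1.62-fold. Spearman's rho of mean FPKM with chromosomal order was 0.71 across the 14 alpha genes and 0.64 across the 12 alternate ones.

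**Figure D3:**
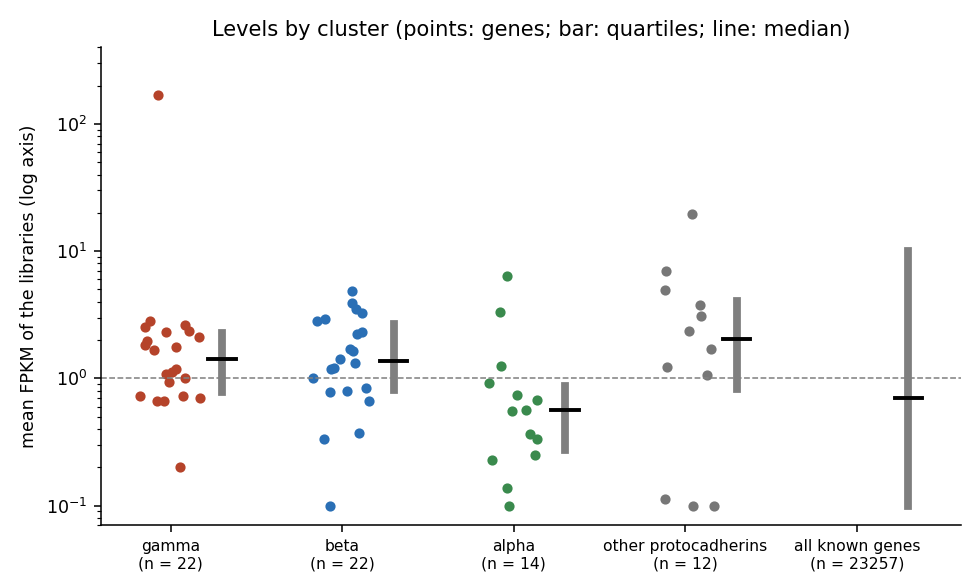
Mean FPKM of the 2 libraries (log axis) of each gamma, beta and alpha gene and of the 12 other protocadherins, with a black line at the median and a grey bar over the quartiles, beside the same line and bar for all 23257 known genes. The medians are 1.43 for gamma, 1.38 for beta, 0.560 for alpha, 2.03 for the other protocadherins and 0.695 for known genes, whose bar (0.1 to 10.04) is wider than those of the clusters.

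The clusters were compared by the mean of log2(FPKM + 0.1) over their genes. Gamma was over alpha by 1.301 in replicate 1 and 1.203 in replicate 2, a mean of 1.25 ± 0.07 (SD, n = 2 libraries). Beta was over alpha by 1.04 and 1.0004, a mean of 1.02 ± 0.03. Both differences were many times the spread between the libraries. In terms of single genes, 21 of 22 gamma genes and 19 of 22 beta genes lay above the alpha median of 0.560, while 2 of 14 alpha genes lay above the gamma median, and 2 above the beta median. The groups still overlapped, since in 76.0% of all gamma and alpha pairs the gamma gene was the higher, and in 74.2% of beta and alpha pairs the beta gene.

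Gamma and beta differed by much less, and the direction of that difference depended on 1 gene. Gamma was over beta by 0.26 and 0.20, a mean of 0.23 ± 0.04. Without Pcdhgc3, an alternative added after seeing the data, gamma was under beta by a small amount, with differences of -0.05 and -0.11. The median of gamma over that of beta was 1.10 in replicate 1 and 0.973 in replicate 2, so the medians had no common order in the libraries. Of 22 gamma genes 11 lay above the beta median, and in 47.5% of pairs the gamma gene was the higher. Without Pcdhgc3 the summed FPKM of gamma was 30.8 and 31.2, below that of beta at 38.9 and 39.6.

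Leaving out Pcdhgc3 kept the order of gamma and alpha. The difference was then 0.98 and 0.89, and the gamma median was 1.18, over the alpha median of 0.560. Without all 5 C-type genes it was 1.34 and 1.26, since Pcdhac2, the highest alpha gene, also left the comparison. Gamma A and B genes then had a median of 1.68 and alternate alpha genes one of 0.460. The comparisons of gamma and of alpha with beta set genes with constant exons beside genes without them. How far the division of shared reads moved these levels was not tested.

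The members were measured about as evenly as other genes of their level. The SD of the difference in log2(FPKM + 0.1), replicate 1 minus replicate 2, was 0.21 over the members, of which 24 were higher in replicate 1 and 32 in replicate 2. For the 55 members with a mean above 0.1 and under FPKM 10 it was 0.21, beside 0.27 over the 8058 known genes in that range. For the 31 members between FPKM 1 and 10 it was 0.16, beside 0.20 over 5356 known genes. Over 1.5-fold apart between the libraries were 2 members (3.45%, beside 2.43% of known genes), and none was over 2-fold apart. Many known genes are listed at 0.1 in both libraries and cannot differ, and among genes with a mean above 0.1 and under FPKM 10 the share over 1.5-fold apart was 3.64% of members, beside 6.94% of known genes. The 2 members were Pcdha8, with 0.282 and 0.176, and Pcdhb4, with 0.962 and 0.636, and in both replicate 1 was the higher. Across the 58 members the libraries had a Spearman rho of 0.983, and a Pearson r of 0.991 on the log2(FPKM + 0.1) scale. These genes share a library and an annotation, so no p is given.

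**Figure D4:**
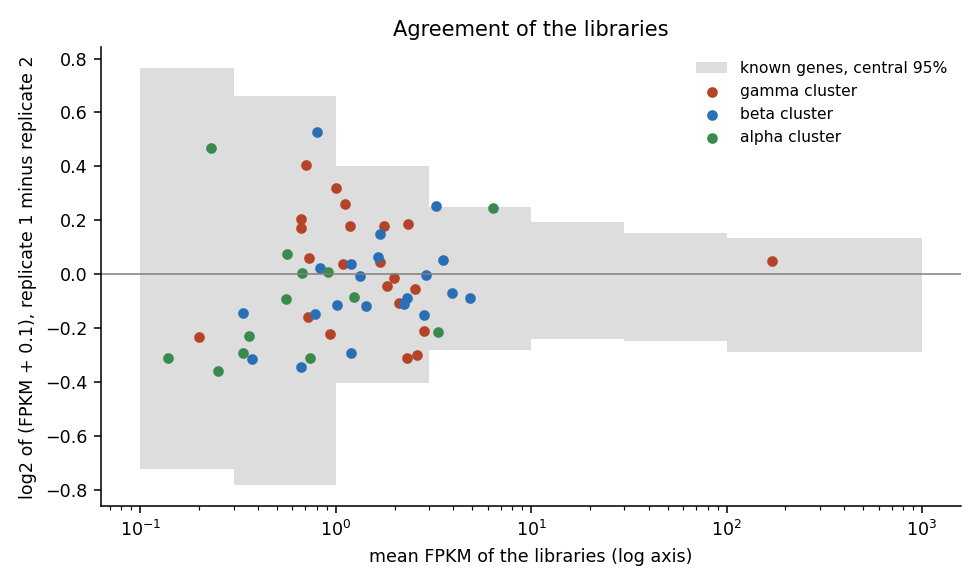
Difference in log2(FPKM + 0.1), replicate 1 minus replicate 2, against the mean FPKM (log axis) of the 56 members above 0.1, coloured by cluster, over a grey band that holds the central 95% of known genes of like level. Of the 56 members 55 lie within the band, and Pcdhb22, at 0.25, lies just past its edge.

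The protocadherins outside the clusters have no constant exons in common with them. Most also lay under 7.86, the median of known genes above 0.1 in both libraries. Of the 12 protocadherins outside the clusters, 8 (66.7%) were above FPKM 1 in both libraries, beside 47.7% of known genes. Their median was 2.03, beside 0.695 over all known genes. Pcdh10, a delta protocadherin that recruits an actin regulator, was the highest with 19.9 and 19.6. Pcdh7 followed with 7.36 and 6.68 and Pcdh9 with 4.59 and 5.31, both also delta protocadherins. Pcdh12, known from endothelial cells, and Pcdh20 were listed at 0.1 in both libraries. Pcdhgc3 was higher than each of the 12, while Pcdhac2, the next clustered gene, lay under Pcdh10 and Pcdh7 in both libraries.

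The genes that shape or silence the protocadherin locus were nearly all present. Of 18 such genes 17 were above FPKM 1 in both libraries, beside 47.7% of all known genes. Of the known genes above 0.1 in both libraries, 82.5% were. Of the 18, 14 were above FPKM 10, and the median of the 18 was 14.8, beside an upper quartile of 10.04 over known genes. Ctcf, the insulator protein that binds protocadherin promoters and enhancers, had 30.9 and 31.8. The cohesin ring gene Rad21 had 97.9 and 96.9, and the other ring genes Smc1a (32.6 and 32.4) and Smc3 (23.2 and 25.02) were lower. The cohesin subunits Stag2 and Stag1 had means of 31.7 and 13.4, the loaders Nipbl and Mau2 12.6 and 9.16, and the release factor Wapl 15.3. Hnrnpu, a nuclear RNA-binding protein with a part in chromatin structure, was the highest of the list with 205 and 191.

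Among the silencing genes of this list the DNA methyltransferases differed most. Dnmt3b, which methylates clustered protocadherin promoters in the early embryo, had 0.755 and 0.723 and was the only gene of the list under FPKM 1. Dnmt1, the maintenance enzyme, had 30.1 and 28.1, and Dnmt3a, the other de novo enzyme, had 11.5 and 10.5. All other silencing genes lay between these extremes. Smchd1, a structural protein that represses the clusters, had 13.4 and 14.1, and its partner Lrif1 had 5.53 and 6.15. The histone methyltransferase gene Setdb1 had a mean of 19.6, Wiz, a partner of histone methyltransferases, one of 14.2. Rest, the repressor of neuronal genes, had 4.11 and 3.88.

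**Figure D5:**
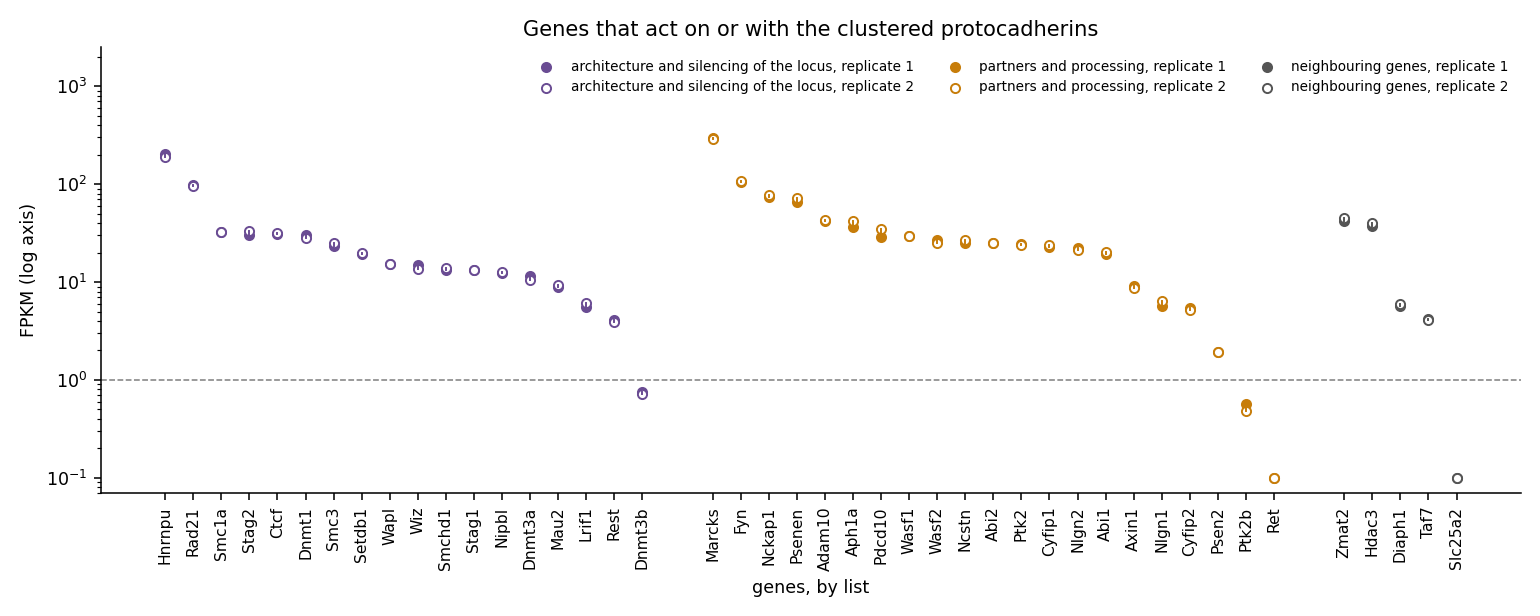
FPKM (log axis) in NSC replicate 1 (filled) and replicate 2 (open) of genes that act on the locus, of partners and processing enzymes of the proteins, and of neighbouring genes, each list sorted by level, with a dashed line at FPKM 1. Dnmt3b is the only gene of the locus list under FPKM 1, and Ret and Slc25a2 are listed at 0.1.

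The partners and processing enzymes of the proteins were also mostly present. Of 21, 19 were above FPKM 1 in both libraries, beside 47.7% of known genes and 82.5% of those above 0.1 in both. Above FPKM 10 were 15, and the median of the 21 was 25.2, beside an upper quartile of 10.04 over known genes. Adam10, the protease that sheds the extracellular part, had 42.5 and 43.2. Among genes of gamma-secretase, whose complex then cuts in the membrane, Psen2 had a mean of 1.94, Ncstn one of 26.0, Aph1a one of 39.3 and Psenen one of 69.0. The kinase Ptk2, which the constant domains of alpha and gamma proteins bind and inhibit, had 24.4 and 23.8. Its relative Ptk2b, bound in the same manner, had 0.572 and 0.479. The 2 kinases thus lay on opposite sides of FPKM 1 in both libraries.

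Further partners followed the same course, with 1 exception. Genes of the WAVE complex, which drives actin assembly and binds a motif in several protocadherin tails, were led by Nckap1 (74.2 and 78.1), and the lowest was Cyfip2 (5.42 and 5.21). Wasf1, Wasf2, Cyfip1, Abi1 and Abi2 had means between 19.8 and 29.4. Fyn, a kinase bound by alpha protocadherin tails, had 104 and 107, and Marcks, an actin-binding substrate of protein kinase C whose phosphorylation gamma protocadherins limit, had 297 and 289, the highest of the list. Axin1, a Wnt pathway scaffold that the Pcdhgc3 protein binds, had 9.14 and 8.61, and Pdcd10, an adaptor bound by the constant domains, had 28.6 and 35.1. The synaptic adhesion genes Nlgn1 and Nlgn2 had means of 6.05 and 21.6. Ret, a receptor kinase that associates with alpha and gamma proteins, was listed at 0.1 in both libraries.

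Other genes in and beside the clusters ranged from the lowest value of the tables to levels above most members. Of 27 other GENCODE M21 genes in the stretch from the alpha to the gamma cluster, 2 had a value in the known-gene table. Taf7, a subunit of the general transcription factor TFIID that lies between the beta and gamma clusters, had 4.22 and 4.09, and Slc25a2, a mitochondrial carrier gene, was listed at 0.1. The 2 with a value in the lncRNA table, Gm10544 and Gm26672, were listed at 0.1 in both libraries. Outside the stretch, Zmat2 had 41.8 and 44.7, Hdac3, a histone deacetylase, 37.7 and 39.7, and Diaph1, a formin, 5.646 and 5.996. Of the members only Pcdhgc3 exceeded Zmat2 and Hdac3.

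The label of the cells was set against marker genes. The markers of NSCs and radial glia, 10 in number, all exceeded FPKM 1 and summed to 3868 and 4146. Of 12 neuron markers 6 were above FPKM 1, near the share of all known genes (47.7%). The neuron markers summed to 130 and 135, mostly from Map2 (102 and 106). Snap25, Tubb3, Syn1 and Gad1 were also above FPKM 1 in both libraries, with means of 10.48, 6.368, 5.195 and 4.138. Rbfox3, which defines mature neurons, had 1.10 and 1.09, Dcx had 0.524 and 0.652, and Stmn2, Eomes, Tbr1 and Slc17a7 were listed at 0.1. Of 6 markers each, astrocytes had 6 above FPKM 1, several of which radial glia also express, and the oligodendrocyte lineage had 5. Their medians were 15.9 and 2.14, and the highest means were those of Aldoc (223) and Cspg4 (8.74). All 5 microglia and all 5 endothelial markers were listed at 0.1. The part of neurons or other cells in the level of any clustered protocadherin was not tested.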

How the data were processed

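The values are FPKM that the authors computed and deposited for each of the 2 libraries, on an annotation that joined lncRNAs and UCSC known genes of mm10. The submitters' processing notes name TopHat2 2.0.11, Bowtie2 2.2.2 and Cufflinks 1.3.0, and by the study's methods Cufflinks was run with multi-read and bias correction. Read counts were not analysed here, so the depth behind each value and its counting error are not known from the files, and only the 2 libraries measure precision. FPKM of all known genes summed to 352990 and 367131.

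Means, medians, sums, shares and differences of log2(FPKM + 0.1) were computed per library in Python 3.11.15 (SciPy 1.17.1, pandas 2.3.3, NumPy 2.4.6), with code tested on simulated data, and drawn with matplotlib 3.10.9. The genes named are all members, the other protocadherins, and lists of locus regulators, protein partners, neighbours and cell type markers, of which 1 partner gene is not reported here. Alternatives to the threshold, pseudocount, scale, filter, summary, libraries and C-type genes are given in the closing section. Members and lists were chosen with earlier results of these data known. Gene spans are those of RefSeq on GRCm38.p6. Transcripts are the longest coding ones of GENCODE M21, for gamma and alpha those with 4 exons, where 1 symbol differed (Pcdha10, matched by its place). Sequences of promoters and proteins were not analysed here. A fusion entry, Pcdha4-g, is no member and was listed at 0.1.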

Additional observations from a re-analysis of the deposited data

How the results depend on the processing

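With each library alone, 15 and 15 gamma, 15 and 14 beta, and 3 and 3 alpha genes were above FPKM 1, without replicate 1 and without replicate 2. The medians of gamma and beta had opposite orders in the libraries. With 2 libraries a sum or difference of 1 library lies within the SD by construction, so this says nothing of stability. No paired analysis was possible because the series holds 1 condition. With an FPKM threshold of 0.1, 22 gamma, 21 beta and 13 alpha genes were above it in both libraries, and with one of 5, 1 gamma, 0 beta and 1 alpha gene. With FPKM rescaled to the same total of known genes in each library, as in TPM, 21 gamma, 19 beta and 8 alpha genes were above 1, with medians of 3.98 for gamma, 3.83 for beta and 1.56 for alpha, and sums of 560 for gamma, 109 for beta and 43.9 for alpha. The mean over genes in place of the median was 9.15 for gamma, 1.78 for beta and 1.13 for alpha. With only members above 0.1, the beta median was 1.43, the alpha sum 15.7, gamma over alpha 1.11 and gamma over beta 0.10.

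Without the C-type genes, the median and sum were 1.68 and 29.6 for gamma and 0.460 and 8.70 for alpha, beta over alpha was 1.302 and gamma over beta was -0.0047, with 0.013 in replicate 1 and -0.023 in replicate 2, so that the libraries gave no common order. Without Pcdhgc3, chosen after seeing the data, the gamma median was 1.18 and its sum 31.0, gamma over alpha was 0.94 and gamma over beta reversed to -0.084. With medians over genes, gamma over beta was 0.028 and beta over alpha 1.16. A pseudocount of 1 gave 0.68 for gamma over alpha, 0.18 for gamma over beta, 0.50 for beta over alpha and an SD between the libraries of 0.11. One of 0.01 gave 1.43 for gamma over alpha, 1.18 for beta over alpha and an SD of 0.24. The log2 differences of gamma and of beta over alpha stayed above 0 under all alternatives run for them. Gamma over beta turned negative without Pcdhgc3. It was also below 0, at -0.0047, without the C-type genes, where the libraries had opposite signs. The counts at an FPKM threshold of 5 do not keep the order of gamma and beta over alpha. The files give no depth per library, so whether a gene listed at 0.1 lacks RNA cannot be told.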
